A study of Mus musculus with 2 samples.

Results

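Sox4, Sox7, Sox9, Sox11, Sox17 and Sox18 are 6 genes of the SOX family of transcription factors. They were chosen by name from the 32285 genes of the count matrices as factors of vessel growth and identity. The choice was made with earlier results of these data known. All 6 were listed in both matrices, and each was followed through general capillary (gCap), aerocyte capillary (aCap), artery, vein and lymphatic (LEC) endothelial cells (ECs) of the mouse lung. The control library came from wild-type (WT) C57BL/6 mice given phosphate-buffered saline (PBS) through the tail vein, and the B16-F10 6 h library from WT C57BL/6 mice given 400000 cells of the mouse skin melanoma line B16-F10 by the same route, with lungs taken 6 h later in each case. ECs were sorted as Pecam1-positive and Ptprc-negative cells, and melanoma cells carrying a green tracker dye were added from the injected lungs. The labels give 2 mice per treatment and the methods of the study 3 pooled mice per sample. The methods give males aged 8 to 10 weeks for B16-F10 injections.

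SOX proteins bind DNA through a high mobility group domain, and members of one subgroup can stand in for each other in many tissues. Sox7, Sox17 and Sox18 form the SOXF subgroup, which acts in the forming endothelium upstream of arterial and lymphatic programmes: Sox17 is known for arterial identity, Sox18 for the start of lymphatic differentiation through Prox1, and Sox7 for early vessel and blood cell development. Sox4 and Sox11 belong to the SOXC subgroup, known from progenitor cells and from growing or remodelling vessels. Sox9, of the SOXE subgroup, is known from cartilage, lung epithelial tips and heart valves, and is not a usual EC gene.

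Because each group was 1 library, no difference below has a replicate check and no test was made. Levels are unique molecular identifiers (UMIs, each marking 1 captured RNA molecule) per 1000000 UMIs of a class in a library (CPM). A ratio is the log2 of the B16-F10 CPM divided by the control CPM, so that values below 0 are lower in the B16-F10 library. Brackets hold 95% intervals that cover counting error only. A gene was called measured in a class with at least 50 UMIs over both libraries. Counts of higher or lower genes set beside a background share used a limit of at least 1.5-fold. Elsewhere, higher and lower give the direction of a difference only. Levels are compared between classes and libraries for 1 gene at a time, since 3' UMI counts do not rank different genes.

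Total counts were 85794655 UMIs in the control and 104978816 in the B16-F10 library. After filtering, 7830 and 7767 cells remained, of which 7185 and 6427 were ECs with a median of 7621 and 9066 UMIs. The libraries shared 18 cell barcodes. Vessel classes were named from marker genes after clustering without the SOX genes. All 8 markers of each class were higher in it than in the other ECs in both libraries. Since the same markers named the classes, this describes the naming and is no independent check. Control and B16-F10 libraries held 4435 and 3905 gCap-like, 1450 and 966 aCap-like, 195 and 147 artery-like, 271 and 262 vein-like, and 57 and 51 LEC-like cells. Different clusters made up the classes in the libraries. Of the gCap-like cells, a cluster led by Lalba held 1.38% in the control and 25.7% in the B16-F10 library, and a cluster led by Glb1l2 held 35.6% and 16.8%. Of the aCap-like cells, a cluster led by Ccdc184 held 12.2% and 83.6%, and a cluster led by Rbfox3 53.1% and 9.52%.

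Sox4 lies at chr13:28948919-28953713 and Sox11 at chr12:27334264-27342574, both on the minus strand of GRCm38 (mm10) and each annotated as a single exon. Sox4 overlaps the noncoding gene Gm26735 on the opposite strand. Sox7 (chr14:63943673-63950732, plus strand) and Sox18 (chr2:181669836-181671640, minus strand) have 2 exons, Sox9 (chr11:112782224-112787760, plus strand) has 3, and Sox17 (chr1:4490931-4497354, minus strand) has 8 annotated transcripts of 1 to 5 exons and overlaps the noncoding gene Gm37587 on the opposite strand.

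Of the 6 genes, 2 had an entry in the RefSeq promoter table, the SOXC genes Sox4 and Sox11. Their promoters are shown for that reason. The 250 bases before the start that RefSeq gives are given 5' to 3' on the strand of the gene, from chr13:28953700-28953949 for Sox4 and chr12:27342719-27342968 for Sox11 (GRCm38.p6). Capitals mark the CCAAT box or its reverse complement ATTGG.
Sox4: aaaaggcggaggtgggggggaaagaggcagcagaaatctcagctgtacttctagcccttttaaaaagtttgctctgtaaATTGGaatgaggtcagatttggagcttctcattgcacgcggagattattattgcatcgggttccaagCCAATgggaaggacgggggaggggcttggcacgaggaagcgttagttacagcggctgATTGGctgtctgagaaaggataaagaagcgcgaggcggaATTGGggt
Sox11: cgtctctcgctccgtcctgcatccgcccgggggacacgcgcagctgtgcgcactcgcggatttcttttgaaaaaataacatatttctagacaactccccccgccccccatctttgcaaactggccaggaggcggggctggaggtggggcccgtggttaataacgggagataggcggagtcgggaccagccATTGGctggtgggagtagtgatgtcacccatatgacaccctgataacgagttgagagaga
The Sox4 window held 4 such matches, the farthest 171 bases and the nearest 8 bases before the start, and the Sox11 window held 1, at 60 bases. GENCODE starts Sox4 farther upstream, so the last 14 bases of that window, with the nearest match, lie inside the GENCODE gene. It starts Sox11 144 bases downstream of the RefSeq start. A match was present in 33.8% of the 32851 promoters of the table. On either strand, neither window held the SOX core ACAAT, which 27.7% of promoters held, the SOX core ACAAAG (16.5% of promoters), the TATA box TATAAA (12.4%), the STAT motif (7.02%, searched by the letters TTCNNNGAA) or the AP-1 motif (6.75%, searched by the letters TGANTCA).

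The 3 SOXF genes were present in every blood vessel class. Sox17 and Sox7 were lower in aCap-like than in gCap-like cells of both libraries. In the control library, Sox17 stood at 274.1 CPM (268.5 to 279.8) in gCap-like, 242.6 CPM (218.3 to 269.0) in artery-like and 100.8 CPM in vein-like cells, but at 17.0 CPM (14.8 to 19.4) in aCap-like cells and 25.6 CPM in LEC-like cells. The intervals of gCap-like and artery-like cells overlapped, although the ratio between these classes was beyond counting error. Those of aCap-like and LEC-like cells overlapped too. Sox7 descended from gCap-like (291.5 CPM) through vein-like (231.1 CPM), artery-like (194.4 CPM) and aCap-like (85.0 CPM) to LEC-like cells (8.54 CPM) in the control. The order was the same in the B16-F10 library, and ratios between neighbours were beyond counting error in both. In the control the intervals of vein-like (214.0 to 249.3 CPM) and artery-like cells (172.6 to 218.1 CPM) nonetheless overlapped. Sox18 was spread more evenly, from 341.7 CPM in LEC-like and 356.7 CPM in aCap-like cells to 668.9 CPM (628.0 to 711.7) in artery-like cells of the control library.

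**Figure D1:**
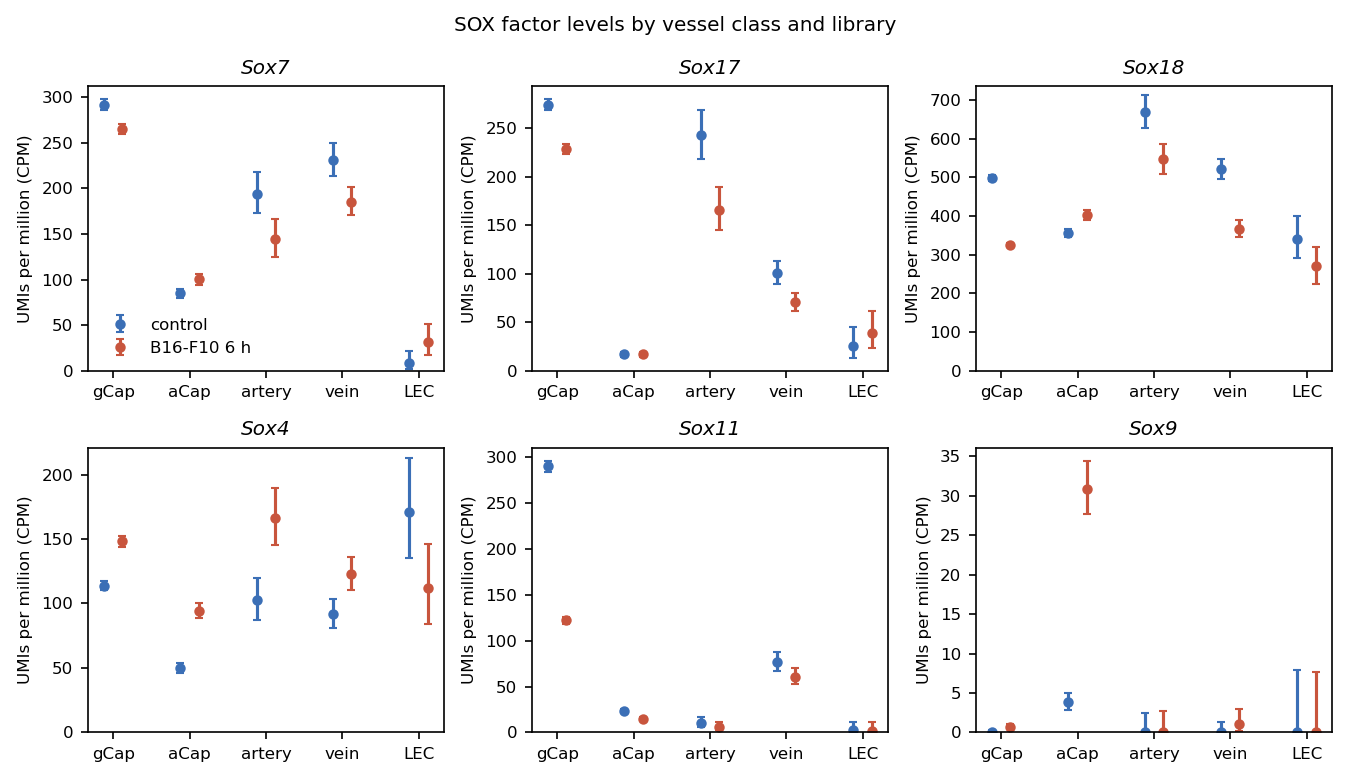
Level of each SOX gene (CPM, linear axes from 0, a separate scale per gene) in the 5 vessel classes, with 1 point per library and bars for the 95% Poisson counting interval. Sox11 in gCap-like cells goes from 290.1 to 122.5 CPM, and Sox9 rises above 5 CPM in the aCap-like cells of the B16-F10 library alone (30.9 CPM).

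All 3 SOXF genes were lower in gCap-like cells of the B16-F10 library, and Sox18 most of them. Sox18 stood at 497.6 CPM (490.0 to 505.3) in the control and 325.4 CPM (319.4 to 331.5) in the B16-F10 library, a log2 ratio of -0.61 (-0.65 to -0.58) or 1.53-fold lower. Sox17 went from 274.1 to 228.7 CPM (log2 ratio -0.26, -0.31 to -0.22) and Sox7 from 291.5 to 265.4 CPM (log2 ratio -0.14, -0.18 to -0.09). Of the 5 SOX genes measured in gCap-like cells, 2 were lower by at least 1.5-fold, Sox11 and Sox18, where 9.53% of the 13049 measured genes were, and 0 were higher, where 8.11% of genes were. The Sox18 ratio lay close to the limit: it fell short of 1.5-fold under 9 of 15 alternative settings, but was below 0 under all 15.

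Veins and arteries had the same SOXF directions. In vein-like cells Sox7, Sox17 and Sox18 had log2 ratios of -0.32 (-0.48 to -0.15), -0.52 (-0.78 to -0.26) and -0.50 (-0.62 to -0.39). In artery-like cells the log2 ratios were -0.43 (-0.69 to -0.16), -0.55 (-0.79 to -0.31) and -0.29 (-0.43 to -0.15), of which that of Sox7 turned to 0.12 when each EC was given a class from its own marker UMIs. For Sox17 this was a step from 242.6 to 165.8 CPM in artery-like cells. The artery-like level lay below the gCap-like level in both libraries (274.1 CPM in the control and 228.7 CPM in the B16-F10 library). No SOX gene of the 5 measured in vein-like cells passed 1.5-fold (background 5.2% of genes higher and 5.65% lower), but under some alternatives Sox17 reached -0.82, Sox11 -0.78, Sox18 -0.59 and Sox4 0.78, each past it. In artery-like cells Sox17 reached -0.75 thinned and Sox18 -0.65 with classes per cell.

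aCap-like cells did not have that pattern. Sox18 stood at 356.7 CPM in the control and 402.6 CPM in the B16-F10 library (log2 ratio 0.17, 0.12 to 0.23), Sox7 at 85.0 and 100.2 CPM (0.24, 0.12 to 0.36), and Sox17 at 17.0 CPM in both (0.00, -0.29 to 0.29). Without clusters whose cells had a median under 5000 UMIs, which removed the aCap-like cluster led by Tmeff2, the Sox18 ratio was -0.00498. Within the 3 aCap-like clusters, Sox17 ratios ran from 0.14 to 0.35, each within counting error, and Sox7 ratios from 0.29 to 0.70. Sox18 ratios there ran from -0.01 to 0.18, and 1 of the 3 was beyond counting error. Sox18 was lower in aCap-like than in gCap-like cells of the control library and higher in the B16-F10 library. In LEC-like cells Sox18 stood at 341.7 and 270.1 CPM, a log2 ratio of -0.34 whose interval (-0.68 to 0.00) reached 0. Sox7 and Sox17 had 19 and 31 UMIs there and were not measured.

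**Figure D2:**
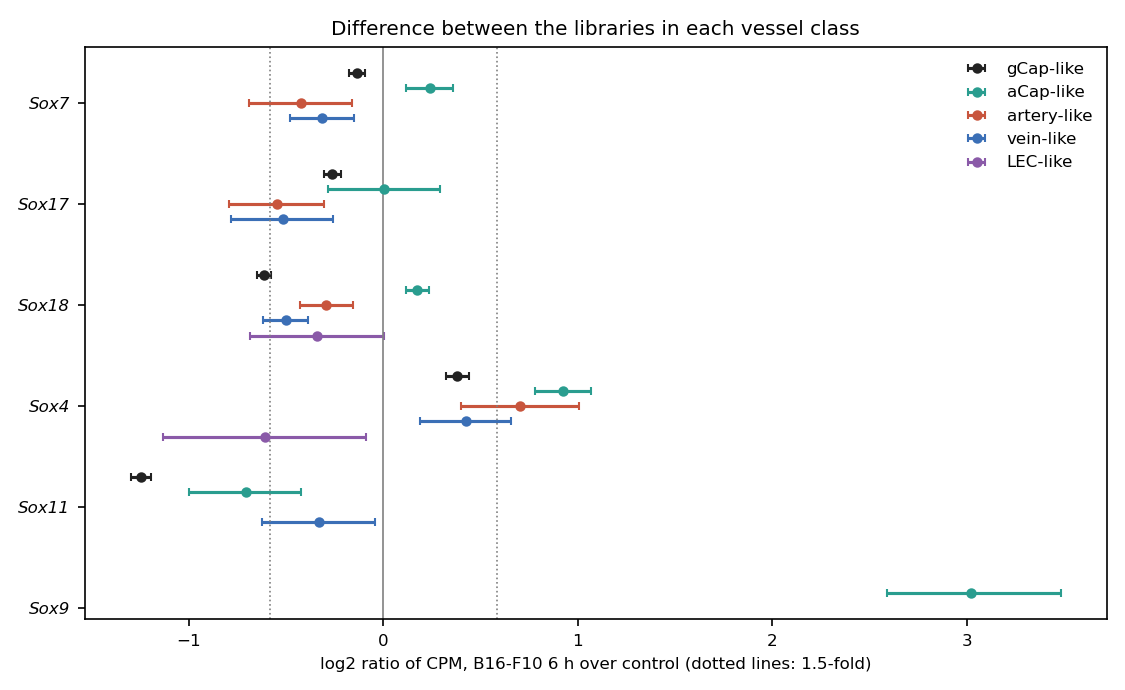
Log2 ratio of CPM, B16-F10 6 h over control, for each SOX gene and each vessel class with at least 50 UMIs, with bars for the 95% counting interval and dotted lines at 1.5-fold. Sox4 lies above 0 in the 4 blood vessel classes and below 0 in LEC-like cells (-0.61), Sox11 lies below 0 wherever it was measured, and the aCap-like Sox18 ratio (0.17) is on the other side of 0 from the gCap-like one (-0.61).

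To ask how many cells carried the SOXF genes, each cell was thinned to 2000 UMIs, which left out 61 control and 28 B16-F10 gCap-like cells. At that depth 82.3% of control and 75.8% of B16-F10 gCap-like cells held a UMI of at least 1 SOXF gene, and 42.3% and 31.9% held UMIs of at least 2 of them. Sox18 was seen in 55.2% (53.7 to 56.6) and 44.1% (42.5 to 45.7) of these cells. Without thinning, 84.1% and 81.9% of cells held a Sox18 UMI, with 7258 and 8519 UMIs in the median cell, so most of the gap was not visible unthinned. In aCap-like cells the share with at least 1 SOXF gene was 50.6% in the control and 61.2% in the B16-F10 library. In melanoma-like cells of the B16-F10 library, which should lack these genes, 1 of 76 thinned cells held a Sox18 UMI (1.32%) and 0 held Sox7 or Sox17, where 0 of 76 allows a share of up to 3.95%; their median depth was 8200 UMIs.

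Sox11, a SOXC gene, was concentrated in gCap-like cells, and of the 5 measured SOX genes it had the ratio farthest from 0 there. In the control it stood at 290.1 CPM (284.4 to 296.0) in gCap-like cells, 76.7 CPM in vein-like, 23.3 CPM in aCap-like and 10.1 CPM in artery-like cells, and LEC-like cells held 1 UMI. In the B16-F10 library the gCap-like level was 122.5 CPM (118.8 to 126.2), 2.37-fold lower (log2 ratio -1.24, -1.30 to -1.19). The share of gCap-like cells with a Sox11 UMI at 2000 UMIs was 36.7% (35.3 to 38.2) and 19.6% (18.3 to 20.8), against 66.8% and 44.6% unthinned. Under 15 alternative settings the log2 ratio ran from -1.35 to -0.90 and passed 1.5-fold each time, the value nearest 0 being the one without the cluster led by Lalba.

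The Sox11 difference was smaller in the other named vessel classes. In aCap-like cells Sox11 went from 23.3 to 14.3 CPM (log2 ratio -0.71, -0.997 to -0.42), 1 of 6 SOX genes lower by at least 1.5-fold where 8.18% of 11107 genes were. Under 12 alternatives it ran from -0.83 to -0.38 and fell short of 1.5-fold when classes were set per cell (-0.38) or cells thinned (-0.45). Within the 3 aCap-like clusters its ratios ran from -1.08 to -0.07, and 1 of them was beyond counting error. In vein-like cells it went from 76.7 to 61.0 CPM (-0.33, -0.62 to -0.04), and when the cells were thinned to 2000 UMIs this ratio turned to 0.42. In artery-like cells it had 15 and 8 UMIs and was not measured.

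Sox4, also a SOXC gene, was higher in the B16-F10 library in all 4 blood vessel classes. In aCap-like cells, where the control level was lowest, Sox4 stood at 49.6 CPM (45.9 to 53.6), against 94.1 CPM (88.4 to 100.0) in the B16-F10 library, and the log2 ratio was 0.92 (0.78 to 1.07). Within the 3 aCap-like clusters the ratio ran from 0.16 to 1.23 and was beyond counting error in 2. The lowest was that of the cluster led by Ccdc184 (0.16, -0.07 to 0.40), which held 83.6% of the aCap-like cells of the B16-F10 library. It went from 102.5 to 166.6 CPM in artery-like cells (0.70, 0.40 to 1.00), in vein-like cells from 91.5 to 122.6 CPM (0.42, 0.19 to 0.66) and in gCap-like cells from 113.8 to 148.1 CPM (0.38, 0.32 to 0.44). Sox4 was the 1 SOX gene of 4 measured in artery-like cells that was higher by at least 1.5-fold (background 9.39%), while 0 were lower (7.98%). In LEC-like cells it was lower, with 80 and 54 UMIs (170.9 and 112.2 CPM, log2 ratio -0.61, -1.13 to -0.09). It was then 1 of 2 measured SOX genes past 1.5-fold where 8.01% of 3932 genes were lower and 8.7% higher. The LEC-like ratio rests on 57 and 51 cells and turned to 0.36 when each EC was given a class from its own marker UMIs.

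The gCap-like class was then opened into its 6 clusters, which were made without the SOX genes. Sox11 was lower in the B16-F10 library beyond counting error in 6 of 6 clusters, with log2 ratios from -1.89 to -0.82. Sox18 was lower in 5 of 6, from -0.85 to 0.13, the exception being a cluster of shallow cells led by Gm20631 with 216.1 and 236.4 CPM. Sox4 was higher in 5 of 6, from -0.03 to 0.95. Sox7 was lower in 4 of 6, and Sox17 was lower in 3 and higher in 1. The cluster where Sox17 was higher was led by Ntrk2 and had the highest Sox17 level of the 6 in both libraries (345.3 and 389.6 CPM).

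The clusters differed in the mix of SOX genes. The cluster led by Lalba, with 61 control and 1005 B16-F10 cells, had the lowest Sox11 level of the 6 in both libraries, 126.0 CPM (96.6 to 161.6) and 34.1 CPM (30.5 to 38.0). In the B16-F10 library it also had the lowest Sox17 level (148.5 CPM) and the highest Sox4 level (181.2 CPM) and Sox7 level (325.7 CPM). The cluster led by Glb1l2 had 328.8 and 151.3 CPM of Sox11, and the highest Sox18 level in both libraries (639.1 and 441.4 CPM). Leaving out the Lalba-led cluster moved the class ratio of Sox4 to 0.25, of Sox7 to -0.26, of Sox11 to -0.90, of Sox17 to -0.08 and of Sox18 to -0.51, so Sox17 kept little of its difference and Sox18 no longer passed 1.5-fold. A further endothelial cluster with 7 of 8 gCap markers, led by Zswim5 and holding 597 and 755 cells, was left unnamed because the arterial gene Efnb2 was among its leading genes. There Sox11 went from 179.3 to 124.7 CPM (-0.52), Sox18 from 467.1 to 424.7 CPM (-0.14) and Sox17 from 167.7 to 184.7 CPM (0.14).

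**Figure D3:**
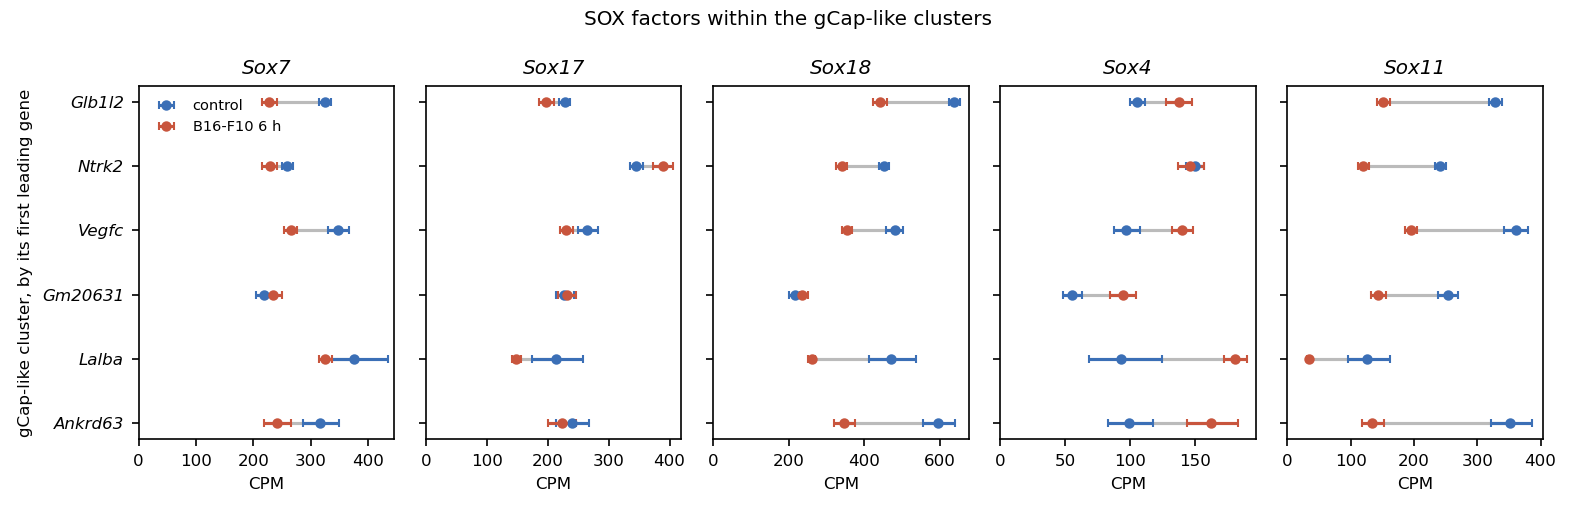
CPM of 5 SOX genes in each of the 6 gCap-like clusters (rows, named by the first leading gene), with 1 point per library joined by a grey line and bars for the 95% counting interval. The Sox11 points of the B16-F10 library lie to the left of the control points in every row, lowest in the Lalba row (34.1 CPM), while the B16-F10 Sox17 point lies to the right of the control point beyond its interval in the Ntrk2 row (389.6 and 345.3 CPM).

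The study describes a reactive capillary (rCap) state of gCap cells. To see whether the SOX genes followed it cell by cell, gCap-like cells at 2000 UMIs were sorted into 4 bins by their UMIs of 44 rCap marker genes, with the same limits in both libraries. The study chose these markers partly on these libraries, so the bins are not independent of the comparison. The lowest bin held 1879 control and 194 B16-F10 cells and the highest 114 and 1934. Sox11 was lower in the highest than in the lowest bin in both libraries, with a log2 ratio of -0.74 (-1.24 to -0.28) in the control and -1.57 (-1.93 to -1.21) in the B16-F10 library. Sox17 was lower in the highest bin of the B16-F10 library (-0.65, -0.93 to -0.36), whereas the control ratio was -0.12 (-0.52 to 0.25). Sox18 did not separate the highest from the lowest bin, with ratios of 0.14 (-0.15 to 0.42) and 0.19 (-0.10 to 0.49). Its level was higher in bin 3 than in bin 1, however. In the control it was 437.5 CPM (416.6 to 459.1) in bin 1 and 549.9 CPM (512.3 to 589.5) in bin 3. In the B16-F10 library it was 270.6 CPM (221.3 to 327.6) and 356.6 CPM (332.4 to 382.1). For Sox4 the ratios of the highest over the lowest bin were -0.19 (-0.94 to 0.47) and 0.66 (0.17 to 1.19). For Sox7 they were -0.17 (-0.57 to 0.21) and 0.29 (-0.02 to 0.61). With cells thinned to 4000 UMIs, the B16-F10 ratios were 0.21 (-0.11 to 0.55) for Sox4 and 0.39 (0.15 to 0.64) for Sox7.

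Within bins the libraries still differed in Sox18 and Sox11 in every bin, and in Sox7 and Sox4 in some. Sox7 was lower in the B16-F10 library beyond counting error in the 3 lower bins (log2 ratios -0.33, -0.33 and -0.25). In the highest bin its ratio was 0.12 (-0.25 to 0.52). Sox4 was higher in bins 2 and 4 (0.35 and 0.81) and within counting error in bins 1 and 3 (-0.04 and 0.16). Sox18 was lower in the B16-F10 library by a nearly equal amount in every bin, with log2 ratios of -0.69, -0.62, -0.62 and -0.65 from the lowest to the highest. The Sox11 ratios widened over the bins, from -0.38 (-0.72 to -0.06) through -0.51 and -0.81 to -1.22 (-1.70 to -0.69). For Sox17 the intervals included 0 in the 3 lower bins, and the ratio was -0.41 (-0.79 to -0.00) in the highest. With cells thinned to 4000 UMIs the Sox18 ratios ran from -0.80 to -0.60 and the Sox11 ratios from -1.36 to -0.33, while the Sox17 ratio of the highest bin was -0.32 (-0.64 to 0.01) and included 0. The highest control bin had 39 Sox11 and 60 Sox17 UMIs.

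**Figure D4:**
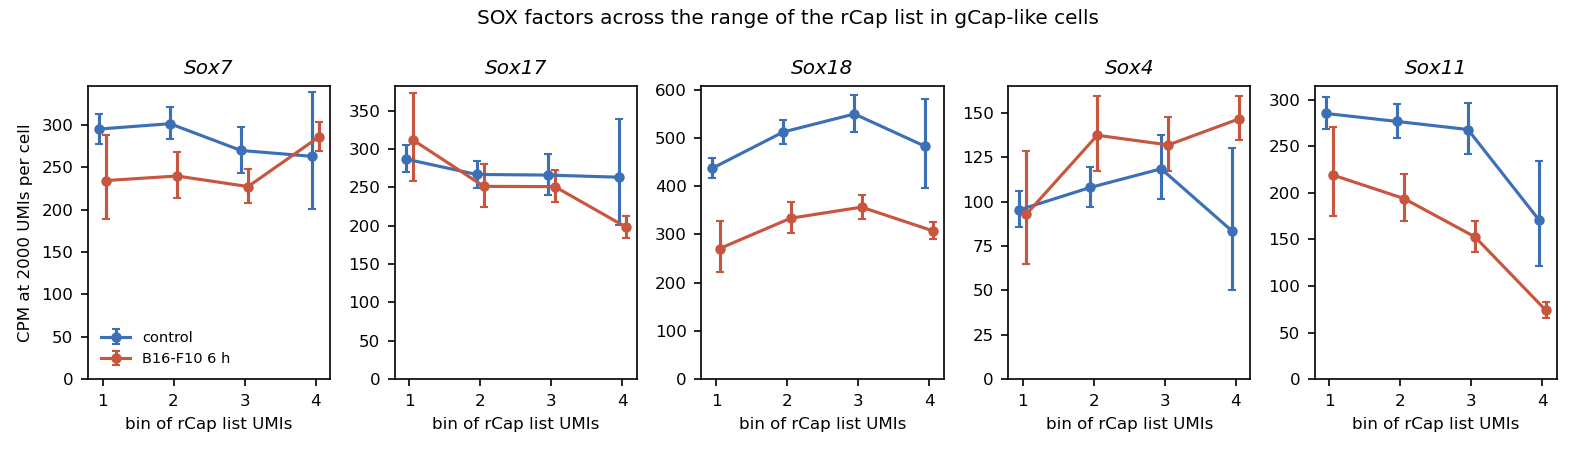
CPM of 5 SOX genes in gCap-like cells thinned to 2000 UMIs, in 4 bins of rCap marker UMIs from lowest (1) to highest (4), with 1 line per library and bars for the 95% counting interval. The Sox11 lines fall from left to right, the 2 Sox18 lines run parallel at different heights, and the Sox17 intervals of the libraries overlap in every bin.

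Sox9 was nearly absent from lung ECs of the control and present in a small share of ECs of the B16-F10 library. Over all ECs it had 53 UMIs in the control and 1238 in the B16-F10 library (0.930 and 20.6 CPM, log2 ratio 4.47, 4.08 to 4.90), while gCap-like cells held 3 and 23 UMIs and artery-like and LEC-like cells 0 in both. It was the 1 of 6 SOX genes higher by at least 1.5-fold over all ECs, where 8.02% of 14409 genes were higher and 11.2% lower. The UMIs lay in few cells: 38 control and 205 B16-F10 ECs held any.

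An unnamed endothelial cluster held 875 of those 1238 UMIs. It was led by Csf2, Sox9 and Prnd, had 7 control and 306 B16-F10 cells, and stood at 293.2 CPM of Sox9 (274.1 to 313.2) in the B16-F10 library, with 0 UMIs in its 7 control cells. Since Sox9 was among the leading genes that describe this cluster, its level there is a description and no finding about the cluster. Within it, 115 of 306 cells (37.6%) held Sox9, with a median of 5 and up to 39 UMIs in a cell, and 64 cells held at least 5. The 8 EC markers ranged from 19.6% of its cells (Emcn) and 56.5% (Tie1) to 97.4% (Cdh5) and 98.7% (Cldn5). The 8 gCap markers ranged from 3.59% of cells (Aplnr) to 98.4% (Cd93) and the 8 aCap markers from 2.61% (Rgs6) to 20.6% (Car4), and the cluster met the naming rule of no vessel class. In the B16-F10 library the cluster had less Sox17 (33.5 CPM), Sox11 (21.4 CPM) and Sox18 (152.1 CPM) than the gCap-like class (228.7, 122.5 and 325.4 CPM), and more Sox4 (246.9 CPM against 148.1). The aCap-like class of that library had still less Sox17 (17.0 CPM) and Sox11 (14.3 CPM), but more Sox18 (402.6 CPM) and less Sox4 (94.1 CPM) than the cluster.

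aCap-like cells were the other place of Sox9. They held 50 UMIs in 36 of 1450 control cells, at most 3 in a cell, and 336 UMIs in 68 of 966 B16-F10 cells, up to 51 in a cell. The log2 ratio was 3.02 (2.59 to 3.48), so that with Sox4 2 of 6 SOX genes were higher by at least 1.5-fold in aCap-like cells, where 6.55% of genes were. The 10 cells with the most Sox9 held 181 of the 336 UMIs. At 2000 UMIs the shares of cells were 0.907% (0.484 to 1.55) and 3.02% (2.03 to 4.31). Csf2, named here after its values were seen, was found in 5 of 68 aCap-like cells with Sox9 (7.35%, 2.43 to 16.3) and in 0 of 898 without it, which allows a share of up to 0.334%. In the Csf2-led cluster the shares were 28.7% (20.6 to 37.9) and 18.3% (13.1 to 24.6), with overlapping intervals, and in gCap-like cells 0 of 19 and 16 of 3886 (0.412%).

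**Figure D5:**
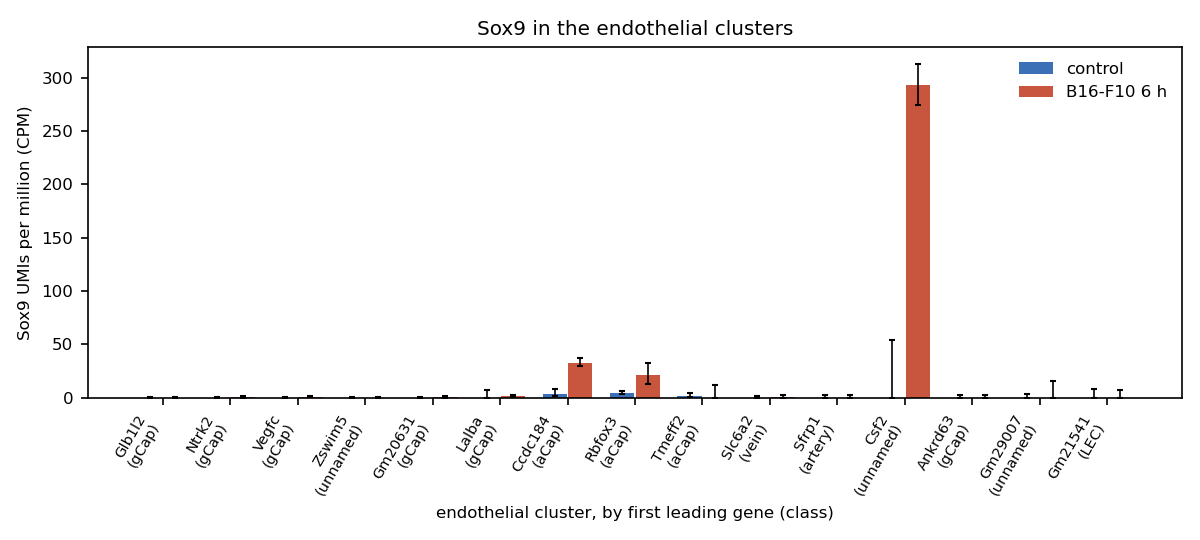
Sox9 level (CPM, from 0) in each endothelial cluster, named by its first leading gene with the class in brackets, with bars per library and black lines for the 95% counting interval. The B16-F10 bar of the cluster led by Csf2 (293.2 CPM) stands above the aCap-like clusters led by Ccdc184 (33.0 CPM) and Rbfox3 (21.1 CPM), and the control bars are at most 4.42 CPM.

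The added melanoma cells were no large holder of these transcripts. The 77 melanoma-like cells of the B16-F10 library stood at 20.7 CPM of Sox4, 18.3 CPM of Sox11, 6.09 CPM of Sox9 and 8.53 CPM of Sox18, and held 2 UMIs of Sox7 and 1 of Sox17. They held 41 UMIs of Sox10, a SOXE factor of pigment cells. RNA outside cells was estimated from surfactant and club cell genes to supply 1.53% of the UMIs of control and 2.12% of B16-F10 gCap-like cells, which corresponds to at most 5.68 CPM of any of the 6 SOX genes. Clusters with markers of ECs together with those of erythroid, platelet or lung epithelial cells were kept out of the ECs and held 601 control (7.68%) and 1116 B16-F10 cells (14.4%). In them Sox11 stood at 227.2 and 83.2 CPM and Sox18 at 407.3 and 279.2 CPM. The part of such cells, of the difference in depth and of the different cluster shares in the ratios above was not tested beyond the settings given.

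Of 14 other SOX genes in the matrices, 4 were measured in gCap-like cells and 0 passed 1.5-fold in either direction, where 8.11% of all measured genes were higher and 9.53% lower. Sox13, a SOXD gene, went from 126.9 to 93.5 CPM (log2 ratio -0.44, -0.51 to -0.37) and Sox5, of the same subgroup, from 25.3 to 19.8 CPM (-0.36, -0.50 to -0.21), whereas the ratios of Sox6 (0.32) and Sox12 (-0.25) were within counting error. The median log2 ratio of all measured genes in gCap-like cells was -0.04.

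Genes linked to SOXF activity had ratios on both sides of 0. Of 9 genes known as SOXF targets or partners, 8 were measured in gCap-like cells, 1 was higher and 1 lower by at least 1.5-fold (all measured genes 8.11% and 9.53%), and their median log2 ratio was 0.00. Efnb2, the arterial ephrin ligand, went from 587.7 to 337.7 CPM (-0.80, -0.83 to -0.77), and Dll4, the arterial Notch ligand, from 130.4 to 117.7 CPM (-0.15). The Notch1 receptor went from 241.5 to 261.6 CPM (0.12), and Vcam1, a leukocyte adhesion molecule, from 2.83 to 22.7 CPM (3.01, 2.69 to 3.33).

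Of 18 arterial and Notch genes, all were measured in gCap-like cells, 4 were higher and 4 lower by at least 1.5-fold (all measured genes 8.11% and 9.53%), with a median log2 ratio of -0.14. The Notch target Hey2 had 102 and 26 UMIs (-2.04, -2.72 to -1.40) and the Notch ligand Jag1 went from 45.1 to 23.8 CPM (-0.92). In the other direction, Heyl had 34 and 88 UMIs (1.31) and the arterial connexin Gja5 57 and 145 UMIs (1.28). All 6 venous genes were measured, 1 was higher and 0 were lower by at least 1.5-fold (the same shares over all genes, 8.11% and 9.53%), and the median was 0.29. Nrp2, a venous and lymphatic semaphorin and VEGF receptor, had 141 and 453 UMIs (1.62) and the venous factor Nr2f2 went from 21.4 to 31.6 CPM (0.57), while Emcn (0.01) and Flt4 (-0.26) stood near or below 0.

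Of 16 Wnt pathway genes, with which SOX proteins interact through beta-catenin, 14 were measured, 1 was higher and 2 were lower by at least 1.5-fold (all measured genes 8.11% and 9.53%), with a median of -0.10. The pathway target Axin2 went from 26.7 to 9.52 CPM (-1.48, -1.67 to -1.30) and the co-receptor Lrp5 from 95.4 to 61.5 CPM (-0.63). Lef1 had 34 and 65 UMIs (0.87) and Ctnnb1, the gene of beta-catenin, had a ratio of 0.31. Of 22 other EC transcription factors, 19 were measured, and 1 was higher and 1 lower by at least 1.5-fold, against the 8.11% and 9.53% of all genes. Their median was -0.01. Etv6 went from 190.1 to 362.0 CPM (0.93) and Tbx3 from 340.4 to 198.9 CPM (-0.78), with Mef2c at -0.53 (211.2 and 146.5 CPM). Of 8 genes linked to Sox9, 2 were measured in gCap-like cells, the partners Sox5 and Sox6 given above.

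To find genes with like patterns, levels on the log2(CPM + 1) scale were compared with those of 11952 genes over the 5 classes of both libraries, 10 points that share libraries and cells. The 3 most alike were Slc15a3, Trim25 and Pltp for Sox7 (Pearson r 0.98 for each), Oxsr1, Deptor and Gm44649 for Sox17 (0.98, 0.97 and 0.96), and Chek2, Kctd12b and Zfp189 for Sox18 (0.94, 0.94 and 0.91). They were Maff, 3222401L13Rik and Snf8 for Sox4 (0.93, 0.92 and 0.91), Usp18, 1700034P13Rik and Car14 for Sox11 (0.95 for each), and Ptges, Pde6d and Ifrd1 for Sox9 (0.97, 0.95 and 0.94).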

How the data were processed

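Both libraries were 10x Genomics 3' single-cell libraries. The authors deposited raw UMI counts per gene and barcode for all barcodes, made with Cell Ranger 7.2.0 on mm10 per the submitters' notes, with no normalization or filter. The study's methods name an earlier version, and whether intron reads were counted is not given in the sources used here. Positions come from GENCODE M21 (32235 of 32285 gene IDs matched).

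Kept barcodes had 1000 to 5000 genes and less than 20% of UMIs from mitochondrial genes, and Scrublet doublets (scanpy 1.11.5, 0.8% per 1000 cells) were left out, 564 and 554 cells. Variable genes without the SOX genes and the 44 rCap and 50 interferon markers (2946 genes) were scaled within each library and clustered with leidenalg 0.10.2 (resolution 0.8, 20 neighbours, 30 components, 25 clusters). A marker counted at 1.5-fold above the other clusters and in 10% of cells, and a class needed at least 3 markers and 50% of its list. ECs needed 6 of 8 EC markers, and clusters with few UMIs were kept.

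UMIs were summed per class and library. Intervals are exact Poisson for CPM, exact conditional binomial for ratios and Clopper-Pearson for shares. They cover counting error only. A count of 0 allows up to 3 counts. No library was replicated, so no test was made. The ratio and its interval were run on simulated Poisson counts. Such counts follow the assumption of the interval and hold no variation between libraries, so this checks the calculation only. Named genes are the 6 SOX genes, the 2 highest and 2 lowest measured ratios of each list in gCap-like cells, and the 3 most alike genes per SOX gene. The SOX genes and lists were chosen with earlier results of these data known. Alternatives changed the gene, mitochondrial and doublet limits, the clustering, the class rule, the scaling, the depth and the correction for free RNA.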

Additional observations from a re-analysis of the deposited data

Results flagged for a closer look

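The log2 ratio of B16-F10 over control lay on opposite sides of 0 in different vessel classes for 3 SOX genes, in each case by more than counting error. Sox4 was highest in aCap-like cells (0.92) and lowest in LEC-like cells (-0.61). Sox7 ran from 0.24 in aCap-like to -0.43 in artery-like cells, and Sox18 from 0.17 in aCap-like to -0.61 in gCap-like cells. Under 1 alternative each, LEC-like Sox4 turned to 0.36, artery-like Sox7 to 0.12 and aCap-like Sox18 to -0.00498. With 1 library per group, the difference between classes was not tested.

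In barcodes outside the kept cells, 3 SOX genes were higher in the B16-F10 library than in the control by more than counting error. Sox9 stood at 14.3 CPM in barcodes with 1 to 100 UMIs (control 0.882), at 11.6 CPM in deeper barcodes that fell short of 1000 genes (control 0.566), and at 11.2 CPM in those with over 5000 genes (control 0.830). Sox4 stood at 103.4, 80.1 and 124.1 CPM in these barcodes (control 77.1, 68.4 and 111.0). Sox7 stood at 108.8 CPM in the deeper barcodes short of 1000 genes (control 95.4), and had a log2 ratio of -0.09 (-0.18 to -0.000613) in those with over 5000 genes. In the same 3 sets, Sox11 (log2 ratios -0.86, -1.16 and -0.89) and Sox18 (-0.47, -0.21 and -0.50) were lower beyond counting error in each. Sox17 was lower in the first and last (-0.29 and -0.26).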

How the results depend on the processing

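The 5 measured SOX genes kept their direction in gCap-like cells under 15 alternatives each, and 46 of 75 ratios moved by less than counting error. The other ratios were, with at least 500 genes, 0.52 (Sox4), -1.35 (Sox11) and -0.40 (Sox17). Under 10% mitochondrial UMIs gave -1.15 (Sox11) and -0.52 (Sox18). No doublet removal gave -1.34 and resolution 1.6 -1.30 (Sox11). Keeping the SOX genes in the clustering gave -1.17 (Sox11) and -0.53 (Sox18). Classes per cell gave 0.31 (Sox4), -0.19 (Sox7), -1.16 (Sox11), -0.17 (Sox17) and -0.51 (Sox18). Thinning gave -1.17 (Sox11) and median scaling -0.57 (Sox18). All ECs together gave 0.53 (Sox4), -0.0364 (Sox7), -1.09 (Sox11) and -0.43 (Sox18). Of settings chosen after seeing the data, adding the unnamed cluster gave -1.16 (Sox11) and -0.53 (Sox18). Leaving out the Lalba-led cluster gave 0.25 (Sox4), -0.26 (Sox7), -0.90 (Sox11), -0.0838 (Sox17) and -0.51 (Sox18). Leaving out clusters with few UMIs gave -1.30 (Sox11) and -0.67 (Sox18). The causes were not tested. With at least 10 UMIs, 1844 genes were higher and 2285 lower by 1.5-fold in gCap-like cells, and with at least 1 UMI in each library 2595 and 3288, with more genes counted, against 1058 and 1244. In other classes 4 ratios reversed: aCap-like Sox18 (-0.00498 without clusters with few UMIs), artery-like Sox7 (0.12, classes per cell), vein-like Sox11 (0.42, thinned) and LEC-like Sox4 (0.36, classes per cell). No paired analysis was possible because the groups held 1 library each, and no replicate could be left out. LEC-like cells numbered 57 and 51, and 2 of 6 genes reached 50 UMIs there.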
